A study of Mus musculus with 58 samples.

Results

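Of 37 genes listed for the citrate cycle, the entry of pyruvate, the malate-aspartate shuttle and the oxidation of branched-chain amino acids, 35 were measured, out of 18820 genes in all. A listed gene counted as measured when at least 1 probe set of the deposited array table carried its symbol and no other, and probe sets of the same gene were averaged. The measured genes were 17 enzyme subunits of the citrate cycle, 4 genes of pyruvate entry, 4 regulators of the pyruvate dehydrogenase complex, 5 genes of the malate-aspartate shuttle and 5 of branched-chain oxidation. The remaining 2 were not counted: the probe sets of Pdha1, the E1 alpha subunit of pyruvate dehydrogenase, also carried the symbol Map3k15, and Mpc2, a subunit of the mitochondrial pyruvate carrier, had no probe set in the annotation used here.

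The mice were male CD2F1 animals (BALB/c x DBA/2), single-housed, that received either C26 colon adenocarcinoma cells under the skin of the flank or a sham injection of salt solution. Tumour bearing mice were trained by whole-body vibration (T + WBV) or left untrained (T), and so were sham-injected mice (C + WBV and C). Training lasted 15 min per day at 45 Hz and 1.0 g, and the mice were killed at day 19. RNA came from a part of the extensor digitorum longus (EDL, a fast muscle) and of the soleus (SOL, a slow muscle), and from heart. The other part of each muscle went to histology. EDL and SOL had 6 arrays each of T, C + WBV and C and 5 of T + WBV, and heart had 3 arrays of each group, 58 arrays from 23 mice in all. Within a group, EDL and SOL arrays of the same replicate number came from 1 mouse, whereas the heart arrays were numbered separately.

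In the mitochondrial matrix, citrate synthase joins acetyl-CoA to oxaloacetate, and the cycle then returns oxaloacetate while it reduces NAD+ and FAD. Pyruvate enters through the mitochondrial pyruvate carrier and becomes acetyl-CoA in the pyruvate dehydrogenase complex, which kinases (PDK) switch off by phosphorylation and phosphatases (PDP) switch on again. Branched-chain amino acids, which muscle can burn itself, are first transaminated by BCAT2 and then oxidized by the branched-chain ketoacid dehydrogenase complex (BCKDH), which is built like pyruvate dehydrogenase and has its own inhibitory kinase, BCKDK.

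RefSeq promoters of build GRCm38.p6 were at hand for 31 of the 35 genes. The 250 bases before an annotated start are printed for 6 of them. Dlat, Sdhd, Sdhb, Cs and Bckdk are shown because they fell in EDL of T mice. Bcat2 is shown because it did not pass the test in any tissue. Capitals mark matches to 6 motifs on either strand: TNAAGGTCA (the element of oestrogen-related receptors), GCGCATGC (a core of the NRF1 site), the CCAAT box, the GC box spelled GGGCGG, the E-box spelled CACGTG, and the TATA motif spelled TATAAA.
Dlat (chr9:50659781-50660030, minus strand): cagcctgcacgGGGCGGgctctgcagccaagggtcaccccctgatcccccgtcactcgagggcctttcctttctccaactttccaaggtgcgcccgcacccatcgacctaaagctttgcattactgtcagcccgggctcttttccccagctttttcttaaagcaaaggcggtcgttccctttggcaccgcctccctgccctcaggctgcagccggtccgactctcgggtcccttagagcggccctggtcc
Sdhd (chr9:50603850-50604099, minus strand): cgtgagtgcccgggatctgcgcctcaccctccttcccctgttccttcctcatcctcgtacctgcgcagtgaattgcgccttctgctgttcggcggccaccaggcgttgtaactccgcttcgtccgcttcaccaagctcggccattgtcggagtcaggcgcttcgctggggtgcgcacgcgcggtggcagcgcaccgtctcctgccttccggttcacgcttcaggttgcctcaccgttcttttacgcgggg
Sdhb (chr4:140961021-140961270, plus strand): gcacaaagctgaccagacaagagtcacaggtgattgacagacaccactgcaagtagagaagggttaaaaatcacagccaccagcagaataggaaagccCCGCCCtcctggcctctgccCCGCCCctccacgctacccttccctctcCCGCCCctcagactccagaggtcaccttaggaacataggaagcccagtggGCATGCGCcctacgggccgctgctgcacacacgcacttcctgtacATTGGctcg
Cs (chr10:128337477-128337726, plus strand): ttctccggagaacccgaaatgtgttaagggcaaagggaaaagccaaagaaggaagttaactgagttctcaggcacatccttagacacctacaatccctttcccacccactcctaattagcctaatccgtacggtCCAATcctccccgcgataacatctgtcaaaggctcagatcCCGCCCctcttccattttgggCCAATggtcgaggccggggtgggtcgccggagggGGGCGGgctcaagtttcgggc
Bckdk (chr7:127903823-127904072, plus strand): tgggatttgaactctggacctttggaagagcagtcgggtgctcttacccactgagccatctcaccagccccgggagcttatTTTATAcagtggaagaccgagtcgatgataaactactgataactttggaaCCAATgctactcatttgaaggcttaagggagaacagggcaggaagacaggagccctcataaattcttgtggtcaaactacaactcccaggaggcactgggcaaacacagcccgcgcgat
Bcat2 (chr7:45569903-45570152, plus strand): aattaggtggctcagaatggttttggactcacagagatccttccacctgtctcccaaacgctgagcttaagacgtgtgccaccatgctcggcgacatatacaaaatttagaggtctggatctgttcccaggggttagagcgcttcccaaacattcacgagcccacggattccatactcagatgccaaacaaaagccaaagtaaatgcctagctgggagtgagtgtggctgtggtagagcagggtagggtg
Among the 31 genes, 17 held CCAAT (54.8%, against 39.1% of the 14749 measured genes with a promoter) and 18 held GGGCGG (58.1%, against 49.8%). The NRF1 core was in 2 (Ogdh and Sdhb, 6.5% against 3.65%), the E-box in 3 (Ogdh, Pdk2 and Pdpr, 9.7% against 8.19%), TATAAA in 2 (Bckdk and Got2, 6.5% against 12.7%), and TNAAGGTCA in 0 (against 1.06%). The promoters of Sdhd, which fell in all 3 tissues, and of Bcat2 held none of the 6 motifs. The stretch printed for Bcat2 lies inside the annotated gene, which begins at 45568967. It thus precedes a later start than the first of the gene, unlike the other printed stretches. A match is a string of letters and says nothing on whether a factor binds there.

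Values are log2 intensities, on which a difference of 1 is a 2-fold change. Differences came from limma, and a gene was called at an adjusted p below 0.01 (Benjamini-Hochberg over all 18820 genes). In RNA of unsorted tissue, fewer cells of a type and less RNA per cell cannot be told apart. The tissue labels held against their markers: in C mice the cardiac troponin Tnni3 was at 12.75 in heart, 4.69 in SOL and 4.28 in EDL, the slow troponin Tnni1 was at 11.57 in SOL against 7.03 in EDL, and fast Actn3 was at 12.54 in EDL against 7.12 in SOL. One mouse stood apart: T + WBV replicate 2 of each tissue, which ended at 100.9% of its starting body mass, and results of T + WBV are given with and without it.

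Untrained tumour bearing mice were compared with C mice to find what the tumour changed. In EDL, 26 of the 35 genes fell and 1 rose, where 11.6% of all genes fell and 10.7% rose. In SOL, 23 fell and 0 rose, where 8.66% of all genes fell and 5.06% rose. In heart, 6 fell and 0 rose (limma), where 3.04% of all genes fell and 2.70% rose. There 23 of the 35 had an unadjusted p below 0.05, against 4979 of all genes. Over the 35 genes the median difference came to −0.50 in EDL, −0.51 in SOL and −0.18 in heart, against −0.03, −0.01 and 0.00 over all genes. Leaving out each array in turn gave 24 to 28 genes that fell in EDL and 20 to 27 in SOL, but 1 to 11 in heart, where 1 or 2 were left without any single T or C array and 11 and 10 were called without T + WBV replicates 2 and 3, which share the fit. The 6 heart calls were also lost, leaving 0, when all 58 arrays were fitted together with the mouse as a random block. With 1 prior variance for all genes 1 was left, whereas 11 were called with only T and C in the fit. The share of all genes called was not taken for these other fits. All 6 T arrays lay below all 6 C arrays for 18 genes in EDL (8.39% of all genes did so) and for 21 in SOL (6.68%). In heart, with 3 arrays against 3, 23 genes separated in this way (16.3% of all genes).

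**Figure D1:**
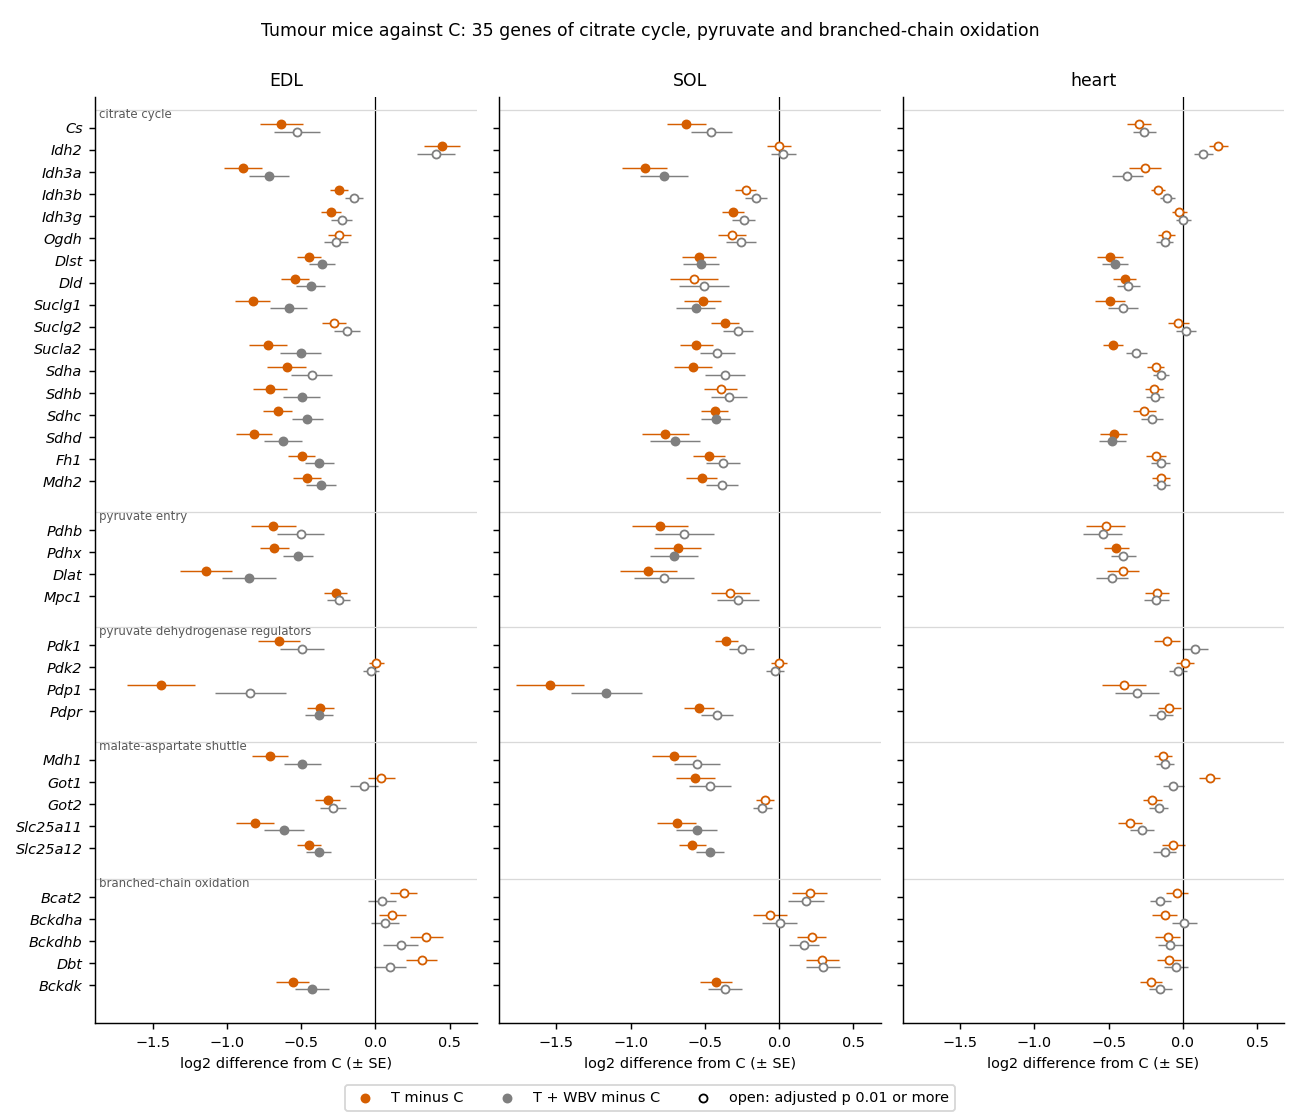
Log2 difference from C of T (orange) and T + WBV (grey) for the 35 genes in EDL, SOL and heart, with bars of 1 SE, filled points at an adjusted p below 0.01 and open points otherwise. Pdp1 lies furthest to the left in EDL (−1.44) and SOL (−1.54) of T mice, Pdk2 stays next to 0, and the branched-chain genes other than Bckdk lie to the right of 0 in EDL.

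Pdp1, the phosphatase that reactivates pyruvate dehydrogenase, had the largest fall in both muscles. In EDL it ranged from 7.08 (median 7.92) to 9.19 in T mice, against 9.31 (median 9.44) to 9.58 in C mice. In SOL it ranged from 7.09 (median 7.68) to 8.90 in T mice, against 9.02 (median 9.24) to 9.48 in C mice. The groups did not overlap in either muscle. The T mouse nearest to C was replicate 3 in both, at 9.19 and 8.90. The difference was −1.44 in EDL (SE 0.23, limma adjusted p = 3.4e-05) and −1.54 in SOL (SE 0.23, adjusted p = 4.3e-05). Heart levels of Pdp1 were 7.68, 7.98 and 8.13 in T mice and 8.31, 8.32 and 8.35 in C mice, a difference of −0.40 (SE 0.15) that was not called (adjusted p = 0.093). The tumour difference of heart exceeded that of EDL by 1.10 (SE 0.35, adjusted p = 0.042) and that of SOL by 1.19 (SE 0.35, adjusted p = 0.038), neither of which passed 0.01.

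Of the other regulators, Pdpr, the regulatory subunit of the phosphatase, fell by 0.37 in EDL (SE 0.09) and by 0.54 in SOL (SE 0.10). Pdk1, a kinase that switches the complex off, ranged from 6.79 (median 7.47) to 8.02 in EDL of T mice and from 7.93 (median 8.16) to 8.28 in C mice, so only T replicate 3 reached into the C range. It fell by 0.65 (SE 0.14, adjusted p = 0.00085) in EDL and by 0.36 (SE 0.08, adjusted p = 0.0015) in SOL, where T mice at 8.45 to 8.90 lay below C mice at 9.03 to 9.22. Pdk2, another of the kinases, ranged from 11.44 (median 11.52) to 11.68 in T mice and from 11.48 (median 11.53) to 11.57 in C mice in EDL, and from 11.17 (median 11.28) to 11.45 in T mice and from 11.22 (median 11.29) to 11.40 in C mice in SOL. Its arrays overlapped in both muscles, and its differences were 0.01 in EDL (SE 0.05), under 0.01 in size in SOL (SE 0.06) and 0.01 in heart (SE 0.06). Of these 4 regulators, 3 fell in each muscle and 0 were called in heart.

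The array also measures Pdk3 and Pdk4, the remaining kinases, and Pdp2, a second catalytic subunit of the phosphatase, which are not among the 35 genes and are given here after their values were seen. Pdk4 averaged 12.12 ± 0.44 in EDL of T mice and 10.97 ± 0.85 in C mice (SD, n = 6 each), and its range of 11.54 to 12.63 in T mice overlapped that of 9.67 to 11.79 in C mice. This difference of 1.15 (SE 0.35) was the largest of the 4 kinases in EDL and ran opposite to that of Pdk1, but it did not pass 0.01 (adjusted p = 0.012). Pdk4 was at −0.10 in SOL (SE 0.26) and −0.28 in heart (SE 0.42). Pdp2 was at 0.28 in EDL (SE 0.15, adjusted p = 0.20), −0.25 in SOL (SE 0.19) and −0.52 in heart (SE 0.12, adjusted p = 0.012). Pdk3 was at 0.11, 0.00 and 0.17. None of these 3 genes was called in any tissue.

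The genes of pyruvate entry fell in 4 of 4 cases in EDL, 3 of 4 in SOL and 1 of 4 in heart. Dlat encodes the E2 core of pyruvate dehydrogenase. Its EDL level ran from 7.83 (median 8.41) to 9.23 in T mice, against 9.50 (median 9.59) to 9.71 in C mice. In SOL it ran from 7.58 (median 8.66) to 9.23 in T mice, against 9.34 (median 9.38) to 9.62 in C mice. The groups did not overlap in either muscle, and T replicate 2 was the lowest array and T replicate 3 the highest of their group in both. The differences were −1.14 in EDL (SE 0.17, adjusted p = 2.3e-05), −0.88 in SOL (SE 0.19, adjusted p = 0.0014) and −0.40 in heart (SE 0.11, adjusted p = 0.021). In heart the 3 T arrays at 9.69, 9.72 and 9.74 all lay below the C arrays at 10.05, 10.13 and 10.18. Pdhx, the E3-binding protein of the same complex, was the member of this role that was called in all 3 tissues, at −0.68 in EDL (SE 0.10), −0.68 in SOL (SE 0.16) and −0.45 in heart (SE 0.08). Pdhb, the E1 beta subunit, fell by 0.69 in EDL and 0.80 in SOL (a call lost without C replicate 2) and was at −0.52 in heart (adjusted p = 0.016). It averages 2 probe sets, of which 1 was bright (10.41 in EDL of C mice) and 1 dim (4.07), and both were lower in T mice of each tissue. Mpc1, the carrier subunit measured, fell by 0.27 in EDL (SE 0.08, adjusted p = 0.0072), a call that was lost when any 1 of 9 arrays was left out (C replicates 2 to 6, T replicates 2 to 5, adjusted p up to 0.042 over all alternatives). With all 58 arrays in 1 fit, 1 prior variance or the replicate block it was lost too.

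In the citrate cycle itself, 14 of 17 genes fell and 1 rose in EDL, 12 fell in SOL and 5 fell in heart. Citrate synthase (Cs), the entry step, ranged from 9.96 (median 10.80) to 11.29 in EDL of T mice and from 11.27 (median 11.38) to 11.42 in C mice, and only T replicate 3 reached the C range. In SOL it ranged from 10.18 (median 10.88) to 11.26 in T mice and from 11.33 (median 11.40) to 11.58 in C mice, without overlap. The difference was −0.63 in both muscles (SE 0.15 and 0.13, adjusted p = 0.0014 and 0.0012). In heart, T mice had 11.38, 11.30 and 11.41 and C mice 11.61, 11.66 and 11.71, a difference of −0.30 (SE 0.08, adjusted p = 0.023).

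The NAD-linked isocitrate dehydrogenase is made of 3 kinds of subunit. The catalytic Idh3a ranged from 10.02 (median 10.58) to 11.19 in EDL of T mice and from 11.43 (median 11.48) to 11.54 in C mice. In SOL it ranged from 9.33 (median 10.18) to 10.61 in T mice and from 10.89 (median 10.98) to 11.24 in C mice. It fell by 0.89 in EDL (SE 0.13, adjusted p = 1.3e-05) and by 0.91 in SOL (SE 0.15, adjusted p = 0.00014), with no overlap in either. In EDL, Idh3b fell by 0.24 (SE 0.06) and Idh3g by 0.30 (SE 0.07), and in SOL Idh3g fell by 0.31 (SE 0.07) while Idh3b, at −0.23 (SE 0.07), was not called. The sizes of these changes were not tested against each other, and probe sets differ in how much of a change they show.

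Idh2, the NADP-linked isocitrate dehydrogenase, was the 1 gene that rose. Its EDL level ranged from 9.80 (median 10.45) to 10.79 in T mice and from 9.71 (median 9.97) to 10.14 in C mice, so the groups overlapped through T replicate 2, the lowest T array. The difference was 0.45 in EDL (SE 0.12, adjusted p = 0.0059), under 0.01 in size in SOL (SE 0.08) and 0.24 in heart (SE 0.06, adjusted p = 0.024). The call in EDL was lost without any 1 of C replicates 2, 3 and 6 and T replicates 1, 3, 4, 5 and 6, when only T and C were fitted and after a second quantile normalization (adjusted p up to 0.022). In heart Idh2 was called when T + WBV replicate 2 was left out (adjusted p = 0.0060) or only T and C were fitted (adjusted p = 0.0083). The difference between SOL and EDL in the tumour change of Idh2 was −0.45 (SE 0.13) and did not pass 0.01 (adjusted p = 0.028).

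After isocitrate, the cycle runs through the 2-oxoglutarate dehydrogenase complex, whose E1 subunit Ogdh was at −0.24 in EDL and −0.32 in SOL and not called in any tissue. Its E2 subunit Dlst fell in all 3 tissues, by 0.45 in EDL (SE 0.08), 0.54 in SOL (SE 0.12) and 0.49 in heart (SE 0.09), where T mice had 10.20, 10.24 and 10.33 and C mice 10.76, 10.72 and 10.76. Dld, the E3 subunit that this complex shares with pyruvate dehydrogenase and BCKDH, fell by 0.54 in EDL (SE 0.09) and by 0.39 in heart (SE 0.08) and was at −0.57 in SOL (SE 0.16, adjusted p = 0.011).

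Succinyl-CoA ligase pairs a shared alpha subunit (Suclg1) with an ATP-forming (Sucla2) or a GTP-forming (Suclg2) beta subunit. Suclg1 fell in all 3 tissues, by 0.83 in EDL (SE 0.12), 0.51 in SOL (SE 0.12) and 0.49 in heart (SE 0.10), where T mice had 9.70, 9.36 and 9.65 and C mice 10.01, 10.17 and 10.00. Sucla2 ranged from 9.80 (median 10.34) to 10.96 in EDL of T mice and from 10.96 (median 11.08) to 11.23 in C mice, touching at T replicate 3, and it fell by 0.72 (SE 0.13, adjusted p = 0.00012). In SOL its T arrays, from 9.97 (median 10.40) to 10.75, lay just below the C arrays, from 10.75 (median 10.91) to 11.08, and it fell by 0.56 (SE 0.11, adjusted p = 0.00085). Heart had 10.89, 10.84 and 10.88 in T mice and 11.32, 11.34 and 11.37 in C mice, so the groups were far apart relative to their spread (−0.47, SE 0.07, adjusted p = 0.00084), and the call in heart held with any 1 array left out but was lost with all 58 arrays in 1 fit (adjusted p = 0.062). Of the other 5 heart calls, each was lost without some single array of T or C. Suclg2 moved less: it fell by 0.37 in SOL (SE 0.10, adjusted p = 0.0065), with 8.11 (median 8.33) to 8.58 in T mice against 8.64 (median 8.68) to 8.97 in C mice, and was at −0.28 in EDL (SE 0.08, adjusted p = 0.011). In heart, Suclg2 was at 9.64, 9.47 and 9.40 in T mice and at 9.58, 9.58 and 9.44 in C mice, which overlapped fully (−0.03, SE 0.07). In SOL, the call of Suclg1 was lost without T replicate 2 or 6, and that of Suclg2 without any 1 of C replicates 1 to 4 and T replicates 2, 5 and 6.

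Succinate dehydrogenase, which is also complex II of the respiratory chain, has 4 subunits. All 4 fell in EDL, Sdha by 0.60, Sdhb by 0.71, Sdhc by 0.66 and Sdhd by 0.82 (SE 0.10 to 0.13). In SOL Sdha fell by 0.58, Sdhc by 0.43 and Sdhd by 0.77, while Sdhb was at −0.39 (SE 0.11, adjusted p = 0.013). Sdhd, a membrane anchor, was the 1 subunit called in heart, at −0.47 (SE 0.09, adjusted p = 0.0042), with 10.13, 10.14 and 10.27 in T mice and 10.67, 10.63 and 10.65 in C mice. Fumarase (Fh1) fell by 0.50 and 0.47, and the malate dehydrogenase of the matrix (Mdh2) by 0.46 and 0.52 in EDL and SOL. In heart neither was called (−0.18 and −0.15).

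**Figure D2:**
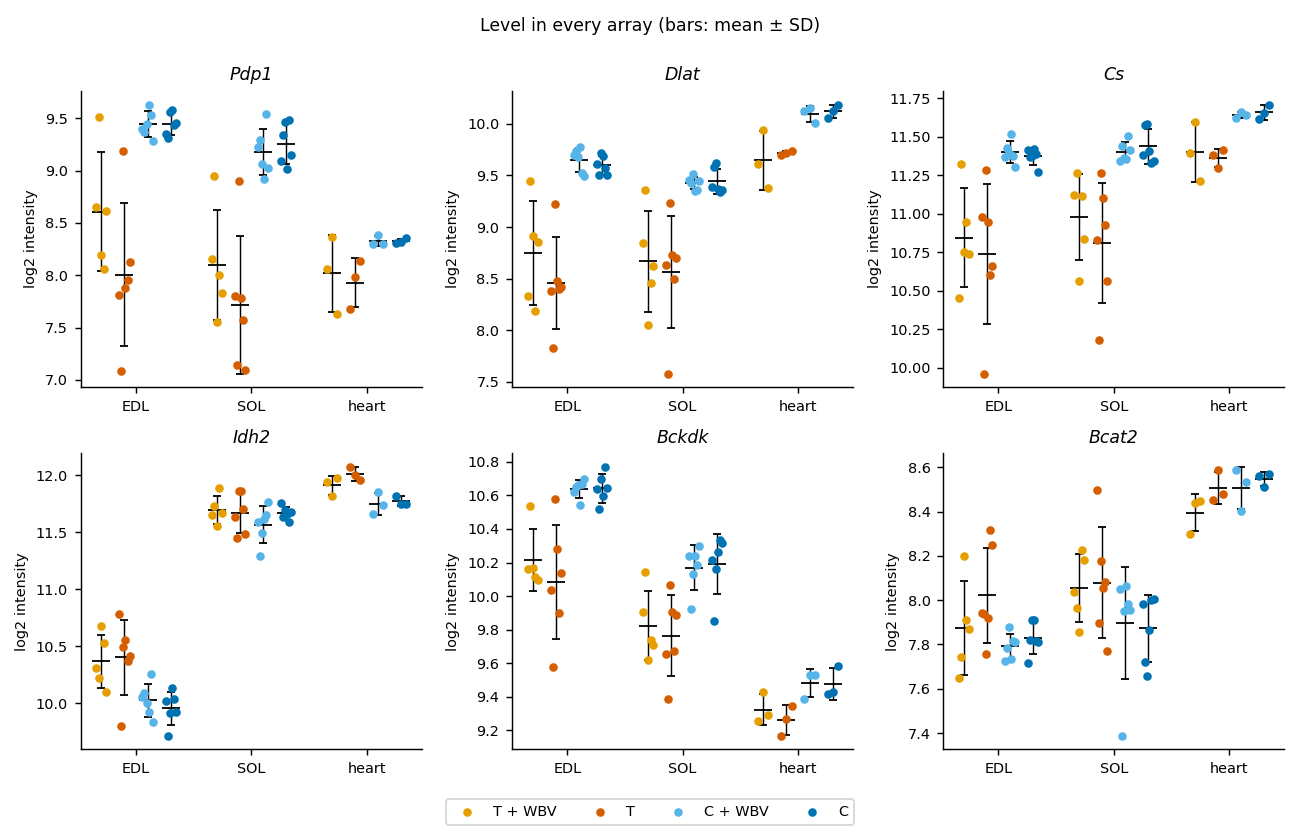
Log2 intensity of Pdp1, Dlat, Cs, Idh2, Bckdk and Bcat2 in every array (points), by tissue and, within a tissue, in the order T + WBV, T, C + WBV and C, with black bars for the mean ± SD (n = 5 or 6 in muscle and 3 in heart). In EDL and SOL the C and C + WBV arrays of Pdp1 and Dlat lie close together above nearly all tumour arrays, and the axes of the 6 panels differ.

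The malate-aspartate shuttle, which carries the electrons of cytosolic NADH into the matrix, had 4 of 5 genes lower in each muscle and 0 in heart. Slc25a11, the oxoglutarate carrier, fell by 0.81 in EDL (SE 0.13) and 0.69 in SOL (SE 0.13), cytosolic Mdh1 by 0.71 in both, and Slc25a12, the aspartate-glutamate carrier of muscle, by 0.45 (SE 0.08) and 0.58 (SE 0.09). Got2, of the matrix, fell in EDL by 0.32 (SE 0.08), a call lost without C replicate 4 or T replicate 2 or 5, and was at −0.10 in SOL (SE 0.06). Got1, of the cytosol, ranged in SOL from 10.62 (median 11.12) to 11.40 in T mice and from 11.56 (median 11.63) to 11.88 in C mice, without overlap, and fell by 0.56 (SE 0.13, adjusted p = 0.0028). In EDL it ranged from 11.45 (median 11.66) to 11.91 in T mice and from 11.42 (median 11.65) to 11.76 in C mice, which overlapped fully (0.04, SE 0.09). Got1 was the 1 gene of 35 whose tumour difference was called as unequal between SOL and EDL, by −0.60 (SE 0.15, adjusted p = 0.0085), where 2.02% of all genes were. That call was lost with any 1 of 16 of the 30 arrays of C and T left out, without the mouse as a block, with 1 prior variance for all genes, and with a term for the suffix 2 that some array descriptions carry. The difference between heart and SOL in the tumour change of Got1 was 0.74 (SE 0.18, adjusted p = 0.010) and did not pass 0.01. No gene of the 35 was called for heart against EDL (3.50% of all genes) or heart against SOL (1.68%) by limma. Of the 35, 16 and 10 had an unadjusted p below 0.05, against 3951 and 3020 of all genes.

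Of the 5 branched-chain genes, 1 fell in EDL, 1 in SOL and 0 in heart, where 11.6%, 8.66% and 3.04% of all genes fell, and in both muscles it was Bckdk, the kinase that switches BCKDH off. Bckdk ranged in EDL from 9.58 (median 10.08) to 10.58 in T mice and from 10.52 (median 10.64) to 10.77 in C mice, with T replicate 3 inside the C range. In SOL it ranged from 9.39 (median 9.78) to 10.07 in T mice and from 9.85 (median 10.24) to 10.33 in C mice, overlapping through C replicate 2, the lowest C array. It fell by 0.56 in EDL (SE 0.11, adjusted p = 0.00029), a call kept under every alternative tried, and by 0.43 in SOL (SE 0.11, adjusted p = 0.0051), a call lost without any 1 of C replicates 1, 4, 5 and 6 and T replicates 1, 2 and 5.

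None of the 4 enzyme genes was called in any tissue. Bcat2, the transaminase, ranged from 7.76 (median 7.94) to 8.32 in EDL of T mice and from 7.72 (median 7.82) to 7.91 in C mice (0.19, SE 0.09, adjusted p = 0.12). In SOL it ranged from 7.77 (median 8.07) to 8.50 in T mice and from 7.66 (median 7.92) to 8.00 in C mice (0.21, SE 0.12, adjusted p = 0.24). Dbt, the E2 subunit of BCKDH, was at 0.31 in EDL (SE 0.10, adjusted p = 0.022) and 0.29 in SOL (SE 0.11, adjusted p = 0.061), Bckdhb, E1 beta, at 0.34 (SE 0.11, adjusted p = 0.021) and 0.22 (SE 0.10, adjusted p = 0.11), and Bckdha, E1 alpha, at 0.11 and −0.06. None of these passed 0.01 in the fit of each tissue. With all 58 arrays in 1 fit, Bckdhb was called as higher in EDL (adjusted p = 0.0054). Without T replicate 3, the T mouse nearest to C, Dbt (0.41, adjusted p = 0.00033) and Bckdhb (0.41, adjusted p = 0.0052) were called as higher in EDL of T mice. In heart the 4 enzyme genes lay between −0.12 and −0.04. The 5 genes had medians of 0.19 (EDL), 0.21 (SOL) and −0.10 (heart).

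Trained tumour bearing mice were compared with C and with C + WBV mice. In EDL, 17 genes were lower and 0 higher in T + WBV than in C (5.69% and 5.37% of all genes), and 18 were lower and 0 higher than in C + WBV (6.60% and 5.27%). In SOL the counts were 9 lower and 0 higher against C (2.66% and 2.01% of all genes), and 6 lower and 0 higher against C + WBV (1.66% and 1.94%). In heart they were 2 lower and 0 higher against C (0.473% and 0.999%), and 0 of either against C + WBV (0.478% and 1.01%, limma). Against C + WBV, 17 of the 35 had an unadjusted p below 0.05 in heart, as did 3841 of all genes. Without T + WBV replicate 2, lower genes against C came to 24 (EDL), 16 (SOL) and 14 (heart), and those against C + WBV to 24, 16 and 15. The share of all genes called in these fits was not taken, so the rise is not shown to be particular to the 35 genes. Leaving out other arrays gave as few as 4 against C in EDL (T + WBV replicate 4) and 0 in SOL (T + WBV replicate 3). In heart it gave 0 for any array but T + WBV replicate 2, also for arrays outside the comparison. Why these counts moved was not tested. The SOL counts also moved with the fit. All 58 arrays in 1 fit gave 20 lower against C and 19 against C + WBV, and the replicate number as a block gave 2 and 1. In heart both of these fits gave 0 lower against C. The T and the T + WBV comparisons share their C arrays.

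Idh3a, Suclg1, Sdhd and Pdhx were lower in EDL of T + WBV than of C mice under every alternative tried, by 0.72 (SE 0.13), 0.58 (SE 0.12), 0.62 (SE 0.13) and 0.52 (SE 0.10). Idh3a ranged from 10.47 (median 10.75) to 11.25 in EDL of T + WBV mice, below all C mice, and from 9.71 (median 10.16) to 10.72 in SOL, also below all C mice. Its difference in SOL was −0.77 (SE 0.16, adjusted p = 0.0030), a call lost without T + WBV replicate 3 or 4 or with the replicate block. Pdp1 was lower in SOL of T + WBV mice (−1.16, SE 0.24, adjusted p = 0.0028), a call lost without T + WBV replicate 3 or 5, and at −0.84 in EDL (SE 0.24, adjusted p = 0.014). The 2 genes called in heart were Dlst, at −0.46 (SE 0.09, adjusted p = 0.0097), and Sdhd, at −0.48 (SE 0.09, adjusted p = 0.0092). Both calls were lost without any 1 array except T + WBV replicate 2.

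The effect of training in tumour bearing mice is the difference between T + WBV and T. No gene of the 35 and none of all genes was called in EDL, SOL or heart (0% each, limma), and 1, 0 and 2 of the 35 had an unadjusted p below 0.05, against 902, 939 and 1407 of all genes. None of the 35 was called without T + WBV replicate 2 either. The 35 genes had medians of 0.10 (EDL), 0.07 (SOL) and 0.03 (heart). Pdp1 had the smallest p in EDL. Its levels there were 8.65, 9.52, 8.19, 8.06 and 8.62 in T + WBV replicates 1 to 5, against 7.08 (median 7.92) to 9.19 in T mice, so the groups overlapped (0.60, SE 0.24, adjusted p = 0.87). The highest of these arrays was T + WBV replicate 2, without which the difference was 0.37. Dbt was next in EDL, from 8.35 (median 8.60) to 8.83 in T + WBV and 8.26 (median 8.84) to 9.04 in T mice (−0.21, SE 0.11, adjusted p = 0.87). In SOL, Sdha had 10.26 (median 10.65) to 10.92 in T + WBV and 9.75 (median 10.38) to 10.88 in T mice (0.22, SE 0.13), and Pdp1 had 7.55 (median 8.00) to 8.94 in T + WBV and 7.09 (median 7.68) to 8.90 in T mice (0.38, SE 0.24), with an adjusted p of 0.93 for both and differences of 0.15 and 0.16 without T + WBV replicate 2.

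In heart, 4 of the 35 genes had T + WBV and T arrays that did not overlap, 2 lower (Got1 and Bcat2) and 2 higher (Sucla2 and Idh3b), where 5.61% of all genes lay lower and 6.08% higher in this way. In EDL 0 of the 35 did so (0.0744% of all genes lower, 0.106% higher), as in SOL (0.218% and 0.138%). The heart counts were close to the shares of all genes, so they do not set the 35 genes apart. In heart Got1 separated the groups, at 11.62, 11.70 and 11.65 in T + WBV mice against 11.73, 11.93 and 12.03 in T mice (−0.24, SE 0.07, adjusted p = 0.44). Sucla2 did so in the other direction, at 10.98, 11.19 and 10.91 in T + WBV mice against 10.89, 10.84 and 10.88 in T mice (0.16, SE 0.07, adjusted p = 0.64), and its highest array was T + WBV replicate 2, without which the difference was 0.08. In mice without a tumour, C + WBV against C gave 0 called genes in each tissue (0%, limma). The 35 genes had medians of 0.02, −0.02 and −0.02 in EDL, SOL and heart. In each tissue 0 of them had an unadjusted p below 0.05, against 627, 598 and 625 of all genes. The interaction of tumour and training gave 0 called genes in each tissue as well (0%). Here 0, 1 and 1 of the 35 had an unadjusted p below 0.05, against 596, 838 and 1105 of all genes. The standard errors of the T + WBV against T differences ran from 0.05 for Pdk2 to 0.24 for Pdp1 in EDL. Even the Pdp1 difference of 0.60 there was not called (limma adjusted p = 0.87), so training differences larger than the SE could be missed.

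Averaged over the 35 genes and set against the C mean of the tissue, T arrays ranged from −0.79 (median −0.43) to −0.14 in EDL and from −0.88 (median −0.43) to −0.11 in SOL. T + WBV arrays ranged from −0.50 (median −0.39) to −0.08 in EDL and from −0.67 (median −0.32) to −0.09 in SOL. The C arrays stayed within −0.08 to 0.08 in EDL and −0.04 to 0.08 in SOL, so every tumour array of SOL lay below every C array, and in EDL only T + WBV replicate 2 touched the C range. In heart the 3 T arrays were at −0.23, −0.22 and −0.18, the 3 T + WBV arrays at −0.21, −0.07 and −0.29, and the C arrays between −0.01 and 0.00.

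The spread among tumour mice went with their body mass at its upper end. The tumour mice that kept the most mass, T + WBV replicate 2 at 100.9% and T replicate 3 at 91.0% of starting mass, had the smallest mean shifts of all 11 in both muscles, at −0.08 and −0.14 in EDL and −0.09 and −0.11 in SOL. T replicate 2, at 78.5%, had the largest shifts, at −0.79 in EDL and −0.88 in SOL. Among the other tumour mice the order was not the same in both muscles: T + WBV replicate 3, which had the lowest body mass at 75.9%, was at −0.26 in EDL and at −0.67 in SOL. The spread showed in single genes too, as the median SD over the 35 genes was 0.27 in T against 0.08 in C arrays of EDL, 0.28 in T against 0.11 in C arrays of SOL, and 0.06 in T against 0.04 in C arrays of heart.

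**Figure D3:**
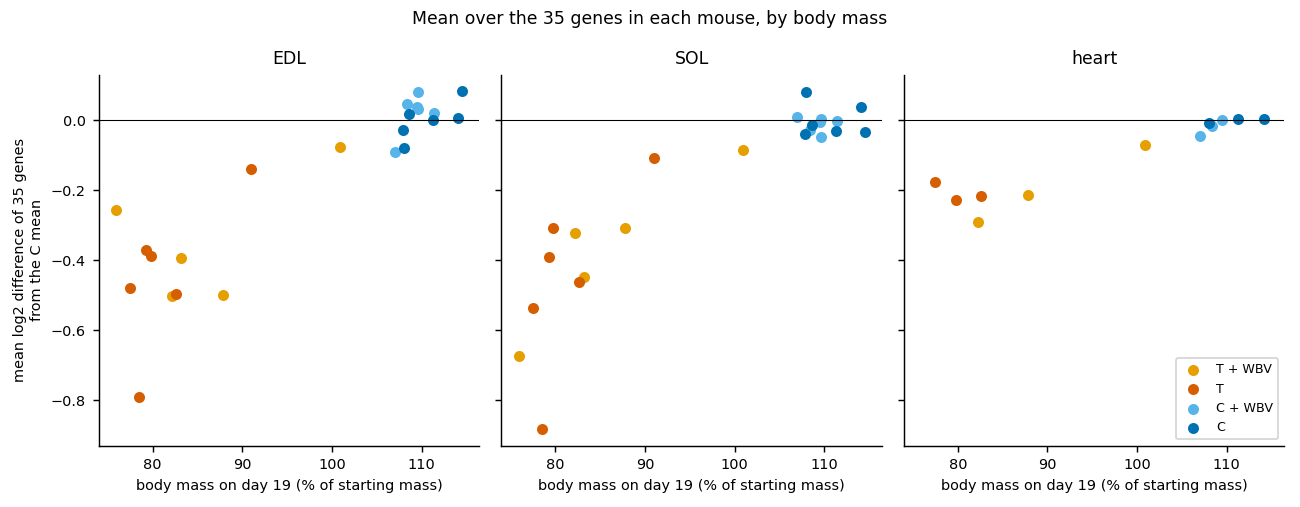
Mean log2 difference of the 35 genes from the C mean of the tissue (vertical axis) against body mass on day 19 in percent of starting mass (horizontal axis), 1 point per array. The tumour mouse at 100.9% (T + WBV replicate 2) lies nearest to 0 in each tissue, and the T mouse at 78.5% lies lowest in EDL (−0.79) and SOL (−0.88).

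The tissues differed in untrained mice without a tumour. In C mice, 4 of the 35 genes were higher and 4 lower in SOL than in EDL (7.49% and 6.44% of all genes). Idh2 was at 11.67 ± 0.06 in SOL and 9.96 ± 0.15 in EDL (SD, n = 6 each), a difference of 1.71 (SE 0.09), and Pdk1 was higher in SOL by 0.97 (SE 0.10), Suclg2 by 0.53 (SE 0.08) and Mdh1 by 0.53 (SE 0.11). The lower genes in SOL were Idh3a (−0.47, SE 0.12), Bckdk (−0.45, SE 0.09), Suclg1 (−0.41, SE 0.10) and Pdk2 (−0.22, SE 0.04). Cs differed by 0.06 (SE 0.12) between SOL and EDL, and the median over the 35 genes was 0.03.

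Heart against EDL in C mice gave 15 higher and 5 lower genes (19.0% and 12.9% of all genes), and heart against SOL gave 13 higher and 5 lower (15.4% and 9.59%). Idh2 exceeded EDL by 1.83 (SE 0.11), Suclg2 by 1.32 (SE 0.09) and Pdk1 by 1.10 (SE 0.13) in heart. All 4 branched-chain enzyme genes were higher in heart than in both muscles, by 0.72 to 0.84 against EDL and 0.58 to 0.82 against SOL, and their kinase Bckdk was lower, at −1.16 against EDL (SE 0.11) and −0.71 against SOL (SE 0.11). Bckdk was at 9.48 ± 0.09 in heart (n = 3), 10.19 ± 0.18 in SOL and 10.64 ± 0.09 in EDL (SD, n = 6 each), and neighbours in that order were each called as different. The other lower genes in heart, against EDL and against SOL, were Pdp1 (−1.14 and −0.95, SE 0.25 each), Pdpr (−0.61 and −0.50), Pdk2 (−0.43 and −0.21) and Slc25a12 (−1.07 and −0.85). Without heart C replicate 2, the counts against SOL were 8 higher and 3 lower.

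**Figure D4:**
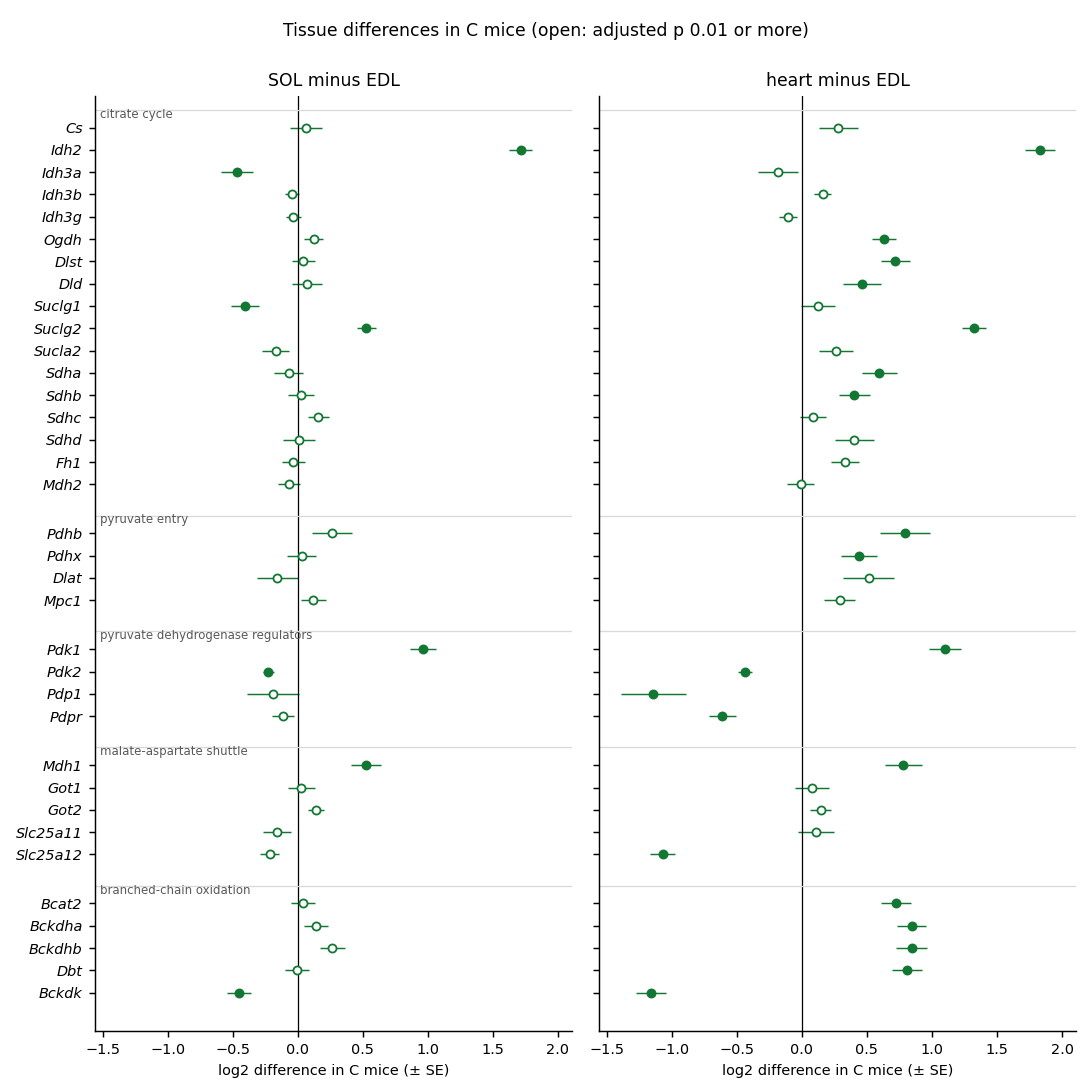
Log2 difference between tissues of C mice for the 35 genes, SOL minus EDL on the left and heart minus EDL on the right, with bars of 1 SE and filled points at an adjusted p below 0.01. Idh2 lies far to the right in both panels (1.71 and 1.83), and in heart the 4 branched-chain enzyme genes lie between 0.72 and 0.84 while Bckdk lies at −1.16.

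The array also measured 52 other genes of these pathways (lactate and malate enzymes, carriers, later steps of branched-chain breakdown, assembly factors). Of these, 14 fell and 3 rose in EDL of T mice (11.6% and 10.7% of all genes). In SOL 11 fell and 2 rose (8.66% and 5.06%), and in heart 9 fell and 1 rose (3.04% and 2.70%). Klf15, a transcription factor that switches on genes of branched-chain breakdown, rose in all 3 tissues. It ranged from 8.21 to 9.67 in EDL of T mice against 7.36 to 7.84 in C mice (1.55, SE 0.22, adjusted p = 1.2e-05), from 7.90 to 9.03 in SOL against 6.92 to 7.84 (1.14, SE 0.20, adjusted p = 0.00018), and from 8.22 to 8.35 in heart against 7.32 to 7.51 (0.88, SE 0.14, adjusted p = 0.0013), without overlap in any tissue. Ldha, which interconverts pyruvate and lactate, fell by 1.04 in EDL (SE 0.20) and by 0.86 in SOL (SE 0.15). Mmab, an enzyme of cobalamin metabolism that serves the propionate branch, fell by 0.92 in EDL (SE 0.16) and by 0.81 in SOL (SE 0.15). In heart the largest falls were those of Pck1, which turns oxaloacetate into phosphoenolpyruvate, by 2.00 (SE 0.41, adjusted p = 0.0062), and of the citrate carrier Slc25a1, by 1.04 (SE 0.19, adjusted p = 0.0032). Pck1 is also a gene of fat cells. The summed level of 6 adipocyte markers (log2 of their summed intensities) ran from 10.31 to 10.55 in heart of T mice. In C mice it ran from 10.58 to 11.22. Of the 6 markers 0 were called, and the part of fat cells in the fall of Pck1 was not tested. In T + WBV against C, 1 of the 52 fell and 2 rose in EDL (5.69% and 5.37% of all genes). In SOL 1 fell (2.66%), and in heart 1 rose (0.999%).

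Markers of other cells moved in the same arrays. Summed levels of markers are the log2 of their summed intensities, in which the brightest marker weighs most. That of 6 neutrophil markers ran from 6.40 to 8.51 in EDL of T mice against 5.79 to 6.29 in C mice. It ran from 6.87 to 8.04 in SOL against 5.93 to 6.33, and from 7.85 to 8.87 in heart against 6.13 to 6.63. Of the 6 neutrophil markers, 4, 6 and 5 rose in EDL, SOL and heart. Of 7 macrophage markers, 2 rose in EDL, 0 in SOL and 4 in heart. Of 5 fibroblast markers, 3 fell in EDL, 4 fell in SOL and 2 rose in heart. Of 8 skeletal muscle markers, 6 fell in EDL and 3 in SOL, and their summed level was 15.04 to 15.49 in EDL of T mice against 15.55 to 15.65 in C mice. In heart 2 of the 8 fell, the skeletal actin Acta1 and the muscle creatine kinase Ckm, and the summed level of the 8 was 10.94 to 10.96 in T mice against 12.06 to 12.34 in C mice. Of 7 slow fibre markers, 0 were called in EDL or SOL, and in heart 1 rose and 1 fell. The part of these changes in the lower levels of the 35 genes was not tested.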

How the data were processed

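Total RNA of EDL, SOL and heart was hybridised to Mouse Gene 1.1 ST arrays, 1 array per tissue of a mouse. The deposited values are log2 intensities, which the authors made by robust multi-array averaging (RMA), with background correction and quantile normalization (version: not given in the sources used here). Their table holds 35556 probe sets, of which 21218 had 1 gene symbol in the annotation, 1881 several and 12457 none. Averaging those with a single symbol gave 18820 genes. Array medians lay between 4.515 and 4.603, the number of arrays limits the precision, and an array gives no read depth.

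Each tissue was fitted with limma 3.58.1 in R 4.3.3 (lmFit, eBayes with a trend, 4 groups), and adjusted p-values are Benjamini-Hochberg values over all genes, called at a threshold of 0.01. Tissues were compared in 1 fit of all 58 arrays with the mouse as a random block (statmod 1.5.0, within-mouse correlation 0.137). The SE is that of the fitted difference. A probe set gives no measure of abundance relative to another gene, so levels were compared within a gene only. Tables were handled with pandas 2.3.3 in Python 3.11.15, and the fits were tested on simulated data.

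All measured members are named by role. Values by array are given for the 3 members with the largest called change between T and C in each tissue, the 2 with the smallest p between T + WBV and T, and Cs, Suclg2, Sucla2, Pdk1, Pdk2, Bcat2 and Bckdk. Of 56 listed other pathway genes, 52 were measured, and up to 3 per tissue are named by the same measure. Marker lists covered skeletal muscle, slow fibres, heart, adipocytes, macrophages, neutrophils, endothelial cells and fibroblasts. Of 6 endothelial markers, 1 fell and 2 rose in EDL of T mice (11.6% and 10.7% of all genes). In SOL 1 fell (8.66%), and in heart 2 fell and 1 rose (3.04% and 2.70%). Of 7 heart markers, 1 rose in SOL (5.06%). Of the 6 adipocyte markers 0 were called in any tissue. The members and the lists were chosen with earlier results of these data known. Alternatives were the intensity-based moderated test of the methods (loess span 0.3), 1 prior variance, a fit of the compared groups alone, a single fit of every array, a second quantile normalization, genes above the median level, the highest probe set, a term for the suffix 2 that some array descriptions carry, the replicate number as a block, no mouse block, and leaving out each array.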

Additional observations from a re-analysis of the deposited data

Results flagged for a closer look

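In 13 of 120 sets of arrays examined (15 genes in the 8 groups of EDL and SOL), the highest or lowest array lay further from the others than the critical value of Dixon's test allows, which chance does in about 1 in 20 sets. Of these, 4 were in C replicate 2 of SOL. There Suclg2 was at 8.97 (the others at 8.64 to 8.76), Pdk1 at 9.22 (the others at 9.03 to 9.09) and Got1 at 11.88 (the others at 11.56 to 11.67), all as the highest array, and Bckdk was the lowest at 9.85 (the others at 10.16 to 10.33). In C replicate 6 of EDL, Cs was the lowest at 11.27 (the others at 11.37 to 11.42), as was Suclg2 at 8.05 (the others at 8.22 to 8.24). In C + WBV replicate 6 of EDL, Sucla2 was the lowest at 11.06 (the others at 11.12 to 11.15), as was Got1 at 11.57 (the others at 11.70 to 11.77).

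Among tumour bearing mice, Idh3a was lowest in T replicate 2 of SOL at 9.33 (the others at 10.15 to 10.61), Bckdk was highest in T + WBV replicate 2 of EDL at 10.54 (the others at 10.10 to 10.16), and Dbt was highest in T + WBV replicate 4 of SOL at 9.27 (the others at 8.51 to 8.71). Dbt was also highest in C + WBV replicate 5 of EDL at 8.66 (the others at 8.37 to 8.48), and Bcat2 lowest in C + WBV replicate 2 of SOL at 7.39 (the others at 7.95 to 8.06). Heart, with 3 arrays per group, was not examined in this way.

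The tumour difference of Got1 was called as unequal between SOL and EDL, by −0.60 (SE 0.15, limma adjusted p = 0.0085), a call that was lost with any 1 of 16 of 30 arrays left out, without the mouse as a block, with 1 prior variance and with a term for the suffix.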

How the results depend on the processing

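Of 36 counts of called genes, 21 stayed within 1.5 times their value under every alternative. Most of these 21 were counts of 0 that stayed at 0. The rest were the counts of lower genes in T against C in EDL and SOL. They also included the counts of SOL and heart against EDL in C mice. Single genes were followed only if called in T or T + WBV against C, so calls gained under an alternative are left out here. Of their values 2272 kept their side of the threshold, 320 lost it and 0 changed direction. As these genes were chosen for their call, that 0 says little. Of the genes called between T and C, 22 of 27 in EDL and 19 of 23 in SOL kept their call under all 32 alternatives, and 0 of 6 in heart under all 20. With only the groups compared in the fit, EDL had 0 higher genes in T against C, SOL 2 lower in T + WBV against C + WBV, and heart 11 lower and 1 higher in T against C and 0 lower in T + WBV against C. With all 58 arrays in 1 fit, EDL had 2 higher in T and 1 higher in T + WBV against C, SOL 20 lower in T + WBV against C and 19 against C + WBV, and heart 0 lower in T and 0 in T + WBV against C. With 1 prior variance, heart had 1 lower in T and 0 in T + WBV against C. After a second quantile normalization, EDL had 0 higher in T and heart 0 lower in T + WBV against C. Over genes above the median level, heart had 1 lower in T + WBV against C + WBV, and 1 gene had unequal tumour differences in heart and SOL. Got1 was not called as unequal between SOL and EDL (0 genes) without the mouse block, with 1 prior variance or with the suffix covariate, under which SOL had 3 lower in T + WBV against C + WBV.

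With the replicate block, SOL had 2 lower in T + WBV against C and 1 against C + WBV, and heart 0 lower in T + WBV against C; no other count moved by over 1.5 times. Same-numbered arrays of different groups deviated together (correlation over 0.1) in 3 of 33 pairs in EDL and 5 of 33 in SOL. Heart had 0 of 18 such pairs. Correlations ran from −0.42 to 0.23 (EDL), −0.41 to 0.40 (SOL) and −0.30 to 0.04 (heart). Differently numbered pairs were not set beside them, so whether these arrays share more than a number was not tested.

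Leaving out single arrays, T against C gave 24 to 28 lower and 0 to 2 higher in EDL, 20 to 27 lower in SOL, and 1 to 11 lower and 0 to 1 higher in heart. In heart the 1 or 2 followed the removal of any T or C array, and 11 and 10 that of T + WBV replicates 2 and 3. T + WBV against C gave 4 to 24 lower and 0 to 1 higher in EDL (7, 4 and 9 without T + WBV replicates 1, 4 and 5, and 9 to 11 without C replicate 1, 3, 4 or 6), 0 to 16 lower in SOL (3 to 5 without any C array, and 4, 16, 0, 1 and 1 without T + WBV replicates 1 to 5), and 0 to 14 in heart. T + WBV against C + WBV gave 7 to 24 lower in EDL (10 and 7 without T + WBV replicates 1 and 4, and 10 or 11 without C + WBV replicate 1, 2, 3 or 4), 0 to 16 in SOL (2, 16, 0, 0 and 0 without T + WBV replicates 1 to 5, 2 and 3 without C + WBV replicates 1 and 5, and 15 without T replicate 2) and 0 to 15 in heart. Heart against SOL in C gave 3 to 5 lower and 8 to 15 higher, the lowest of both without heart C replicate 2. Unequal tumour differences numbered 0 to 1 between SOL and EDL, 0 to 3 between heart and EDL (3 without EDL T replicate 3) and 0 to 3 between heart and SOL (3 without SOL T replicate 3). The cause of these moves was not tested, and the share of all genes called in each of these fits was not taken. The interaction could not be fitted with only the groups compared, and no heart array carries the suffix.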
